A study of Mus musculus with 17 samples.

Results

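Members were picked by gene symbol from the deposited expression table: 7 ubiquitin ligase genes of skeletal muscle (Fbxo32, Trim63, Fbxo30, Fbxo31, Fbxo21, Fbxo40 and Cblb) and the 3 FoxO transcription factor genes Foxo1, Foxo3 and Foxo4. They make up 10 of 36172 genes in the table, and all 10 were among the 13958 that passed a filter on low counts. RNA was sequenced from the extensor digitorum longus (EDL), a hindlimb muscle made mostly of fast fibres, of 17 mice aged 22 or 23 months. Of these, 7 carried a Hand2 vector, 3 males and 4 females, and 10 carried an empty vector, 5 males and 5 females. Hand2 encodes a transcription factor that sympathetic neurons need, and the title of the series concerns keeping those neurons with Hand2 and its bearing on sarcopenia, the muscle loss of old age. The Hand2 animals were 2 males and 1 female of 23 months and 1 male and 3 females of 22 months. The empty-vector animals were 4 males and 3 females of 23 months and 1 male and 2 females of 22 months. The strain, the kind of vector, its promoter and the time since its delivery were not given in the sources used here. All 4 Hand2 animals of 22 months, and no others, have sample titles without a letter for the sex, so in that group the age cannot be told apart from the form of the title. Replicate numbers below only name animals.

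Skeletal muscle loses protein when breakdown outpaces synthesis, and much of the breakdown runs through the ubiquitin-proteasome system. A ubiquitin ligase picks the protein to be tagged, and a few ligases, first of all atrogin-1 (Fbxo32) and MuRF1 (Trim63), are switched on in mouse muscle during fasting, denervation and disuse. FoxO factors bind the promoters of such genes when insulin and IGF1 signalling through Akt is low, because Akt keeps them out of the nucleus. The F-box proteins (Fbxo32, Fbxo30, Fbxo31, Fbxo21 and Fbxo40) are the substrate receptors of SCF ligases, while Trim63 and Cblb are RING ligases that act without such a scaffold.

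Promoters were read to see which members carry a FoxO site next to the start. The reference tables hold a 300-base promoter, 250 bases before and 50 after the start, for 8 of the 10 members (RefSeq, GRCm38.p6). Fbxo32 and Foxo4 were not among them. Among these 8, only the Trim63 promoter held the FoxO core GTAAACA on either strand; on the gene's strand it reads TGTTTAC, in capitals below, and begins at position -194 from the start. The sequence TGTTCT, the recognition unit of the glucocorticoid receptor, begins at position -200 and ends where the FoxO core begins, so the pair abut without overlap; this unit was searched after the sequence had been seen. It was in 2 of the 8 members, the other being Fbxo40, which has 2 promoters. In the second of these it reads AGAACA at position -176. The FoxO core was in 3.65% of all 32851 promoters of this length and TGTTCT, searched on both strands like the others, in 19%. The E-box CANNTG, the site of Hand2 and MyoD type factors, was in 72.3%. Counted by gene, as the members are here, the shares were 4.05%, 21.3% and 75%. The full receptor palindrome, AGAACA and TGTTCT set 3 bases apart, was an exact match in 0 of the 8 members and in 3 of the 32851 promoters. In Trim63 the letters TGAACA stand 3 bases before TGTTCT, which is 1 letter away from that palindrome. Matches with 1 letter changed were not counted in the other promoters. The promoters of Foxo1 and Cblb are shown with that of Trim63 because both genes vary with Trim63 below. Each held 1 E-box, Trim63 held 3, and neither Foxo1 nor Cblb had the FoxO core. The 2 promoters of Fbxo40 held 4 and 2 E-boxes, and those of Fbxo30, Fbxo31, Fbxo21 and Foxo3 held 0. A match is a description of letters, and no binding was measured.
Trim63, chr4:134314870-134315169, + strand: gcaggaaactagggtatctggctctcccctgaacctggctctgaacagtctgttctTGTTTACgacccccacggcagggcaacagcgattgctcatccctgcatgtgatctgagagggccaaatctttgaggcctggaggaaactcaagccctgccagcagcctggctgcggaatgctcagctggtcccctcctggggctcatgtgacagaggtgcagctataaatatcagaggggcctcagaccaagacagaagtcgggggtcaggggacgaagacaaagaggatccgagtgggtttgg
Foxo1, chr3:52268087-52268386, + strand: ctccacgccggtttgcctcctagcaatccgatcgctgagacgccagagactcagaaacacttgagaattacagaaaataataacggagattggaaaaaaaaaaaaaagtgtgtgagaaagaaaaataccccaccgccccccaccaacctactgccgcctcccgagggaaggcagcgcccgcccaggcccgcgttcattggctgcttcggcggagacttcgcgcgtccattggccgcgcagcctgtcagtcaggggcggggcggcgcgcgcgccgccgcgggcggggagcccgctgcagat
Cblb, chr16:52031299-52031598, + strand: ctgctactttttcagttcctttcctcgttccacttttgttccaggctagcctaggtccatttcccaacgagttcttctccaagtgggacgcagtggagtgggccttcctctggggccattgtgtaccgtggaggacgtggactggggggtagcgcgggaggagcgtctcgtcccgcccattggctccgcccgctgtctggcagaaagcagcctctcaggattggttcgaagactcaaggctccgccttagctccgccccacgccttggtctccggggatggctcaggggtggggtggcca

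Library totals ran from 19181208 to 30942818 estimated counts, with a median of 26091234. Values below are in CPM, the usual read count of a gene scaled to a common library size, with trimmed mean of M values (TMM) factors. Hand2 itself was at 1.02 to 26.3 CPM in Hand2 muscles with a median of 2.04, against 0.0711 to 0.94 CPM with a median of 0.382 in empty-vector muscles, and the groups did not overlap. Its log2 fold change was 3.63 with an adjusted p of 0.124 (edgeR), at low levels in both groups. The 6 muscle fibre markers summed to between 63190 and 81430 CPM over the animals, with none at 0. Empty-vector replicates 3 and 4 stood apart in 7 genes of handling stress (Fos, Egr1, Atf3, Jun, Junb, Hspa1a, Hspa1b), which summed to 1525 and 1014 CPM there and to 193 to 346 CPM in the other 15 animals. Replicates 3, 4 and 5 are the only empty-vector females of 23 months, so results were also computed without these 3. In bulk muscle, a lower value cannot be told apart from fewer cells that express the gene.

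The members lie on 8 chromosomes (mm10). Trim63 lies at chr4:134315120-134329629 on the + strand and Fbxo32 at chr15:58175879-58214892 on the - strand. Cblb (chr16:52031549-52208046, +) and Fbxo40 (chr16:36966073-36979136, -) share a chromosome, as do Fbxo30 (chr10:11281330-11297969, +) and Foxo3 (chr10:42185786-42276742, -). Fbxo31 lies at chr8:121549443-121578806 (-), Fbxo21 at chr5:117976770-118010191 (+), Foxo1 at chr3:52268337-52350109 (+) and Foxo4 at chrX:101254528-101260873 (+). The reads were counted over whole genes, so no exon or UTR can be singled out.

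The members spanned a wide range of levels. Per kilobase of exon, Trim63 and Fbxo32 led with means of 132 ± 64.6 and 88.9 ± 26.6 CPM per kb over all animals (SD, n = 17). Foxo4 followed at 85.3 ± 8.12, Fbxo31 at 49.1 ± 7.81 and Fbxo40 at 24.7 ± 2.73 CPM per kb (SD, n = 17). Foxo1 averaged 10.3 ± 8.45, Fbxo21 4.66 ± 0.586, Fbxo30 4.29 ± 0.556 and Cblb 2.63 ± 0.607 CPM per kb (SD, n = 17). Foxo3 was the lowest at 0.746 ± 0.388 CPM per kb (SD, n = 17). Of the 3 FoxO genes, Foxo4 was the highest by these counts. The order was the same before division by length, with means of 297 CPM for Foxo4, 89.3 for Foxo1 and 5.65 for Foxo3. How the deposited counts were assigned to genes was not given, so levels compared between genes are uncertain. The order of neighbours was clear for Foxo4 above Fbxo31 and for Fbxo31 above Fbxo40, whose ranges did not overlap. Cblb was above Foxo3 in all 17 animals although their ranges overlapped. Fbxo32 was above Foxo4 in only 7 of 17 animals and Fbxo21 above Fbxo30 in 12 of 17, so these neighbours did not differ beyond their spread.

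**Figure D1:**
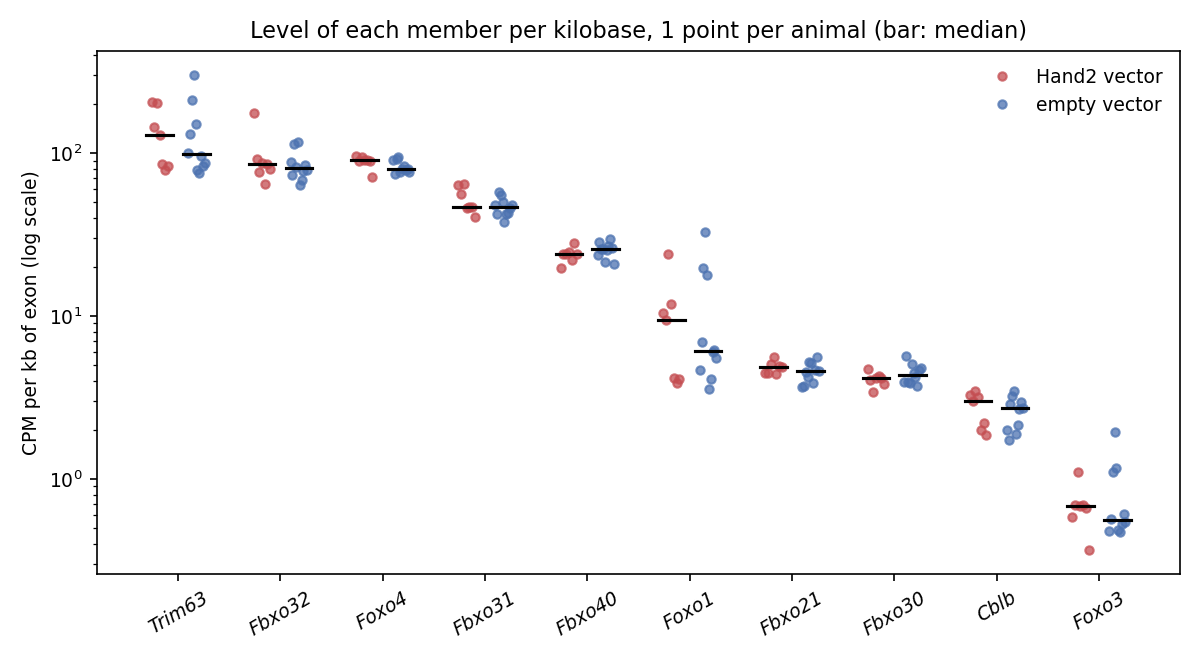
Level of each of the 10 members in CPM per kilobase of exon on a log axis, in order of the mean, with 1 point per animal (Hand2 vector in red to the left, empty vector in blue to the right) and a bar at each group's median. The 2 vector groups overlap in every member, and Foxo1 spreads more widely than its neighbours.

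The members also differed in how much they varied between animals of the same vector and sex. The fitted biological coefficient of variation of Foxo1 was 57.9%, above that of 99.4% of the 1000 genes nearest to it in level. It was 33.4% for Foxo3, 31.3% for Trim63, 24.3% for Fbxo32 and 23.3% for Cblb. The other members, Fbxo30, Fbxo21, Fbxo31, Fbxo40 and Foxo4, lay at 13.3%, 12.5%, 12.1%, 11.5% and 10.1%, beside a median of 14.4% over all genes tested. Against the 1000 genes of like level, all 10 members lay above the middle: Trim63 was above 97% of them, Foxo3 and Fbxo32 above 94.9%, Cblb above 91.9%, Fbxo31 above 76.8%, Fbxo40 above 73.4%, Fbxo30 above 70.3%, Fbxo21 above 66.6% and Foxo4 above 59.6%.

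None of the 10 members passed the test between Hand2 and empty-vector muscles. Trim63, which tags myosin and troponin, ran from 225 to 582 CPM with a median of 367 in Hand2 muscles, and from 214 to 863 CPM with a median of 279 in empty-vector muscles. The Hand2 range lay within the empty-vector range, and the fitted log2 fold change was 0.008 ± 0.22 (SE; 95% interval -0.46 to 0.48). Fbxo32, which tags MyoD and the initiation factor eIF3f, ran from 453 to 1224 CPM with a median of 601 in Hand2 muscles, and from 442 to 814 CPM with a median of 562 in empty-vector muscles. Its log2 fold change was 0.14 ± 0.17 (95% interval -0.21 to 0.49), and the highest value, 1224 CPM, came from Hand2 replicate 1 alone. Without that animal the fold change was -0.049. Foxo1 ran from 33.4 to 208 CPM with a median of 82.1 in Hand2 muscles, and from 30.9 to 284 CPM with a median of 53 in empty-vector muscles. Its interval, -0.97 to 0.86 around -0.057 ± 0.43, was the widest of the 10 and still allowed changes of nearly 1 on the log2 scale either way.

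The remaining members had narrower intervals. Fbxo30, known as MUSA1 and held down by BMP signalling, was at -0.12 ± 0.087 and Fbxo31, which tags cyclin D1, at 0.12 ± 0.075 on the log2 scale. Fbxo21, known as SMART, was at 0.11 ± 0.08 and Fbxo40, which tags the insulin receptor substrate IRS1, at -0.087 ± 0.071. Cblb, which also tags IRS1 in unloaded muscle, was at 0.059 ± 0.16. Foxo3 ran from 2.78 to 8.37 CPM with a median of 5.15 in Hand2 muscles, and from 3.6 to 14.7 CPM with a median of 4.23 in empty-vector muscles. Its log2 fold change was -0.2 ± 0.25, and that of Foxo4 0.097 ± 0.057. For Fbxo30, Fbxo31, Fbxo21, Fbxo40 and Foxo4 the 95% intervals lay within -0.3 and 0.28 on the log2 scale. By edgeR's quasi-likelihood test with Benjamini-Hochberg adjustment over all genes tested, adjusted p-values of the 10 members ran from 0.921 to 0.998. The count of members called was 0 of 10, and 0 of 10 were at an unadjusted p under 0.05, where 0% of all genes were called and 5.04% were at an unadjusted p under 0.05. Without empty-vector replicates 3, 4 and 5, Foxo1 stood at 0.66 and Foxo3 at 0.3 with adjusted p-values of 0.832 and 0.827, turned in sign and still not called. For all members but Fbxo30, Fbxo40 and Foxo4 the value over both ages combines values of opposite sign. At 23 months alone the log2 fold changes of Foxo1, Trim63 and Cblb were -0.95, -0.45 and -0.39, and at 22 months alone 1.27, 0.64 and 0.61, with adjusted p-values from 0.161 to 0.716 (edgeR). Those of Fbxo32, Fbxo31, Fbxo21 and Foxo3 were -0.11, -0.048, -0.02 and -0.368 at 23 months alone. At 22 months alone they were 0.396, 0.294, 0.323 and 0.511.

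**Figure D2:**
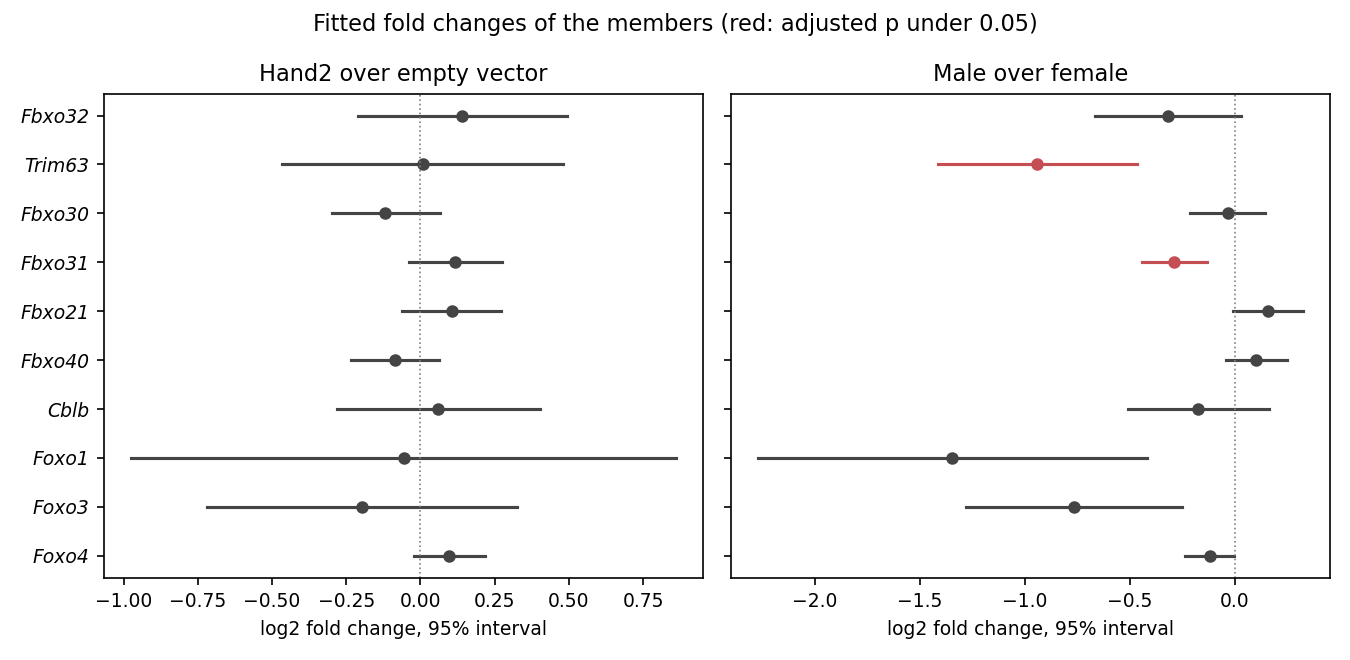
Fitted log2 fold changes of the 10 members with 95% intervals, for Hand2 over empty vector (left) and male over female (right), from 1 model over 17 animals. Every interval on the left crosses 0, and on the right Trim63 and Fbxo31, in red, have an adjusted p under 0.05.

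Within each sex no member passed. In females, Foxo1 differed by -0.44 ± 0.58, Foxo3 by -0.45 ± 0.33, Trim63 by -0.17 ± 0.31, Fbxo31 by 0.19 ± 0.1 and Fbxo32 by 0.11 ± 0.23 on the log2 scale (Hand2 over empty vector). In males, Foxo1 differed by 0.39 ± 0.63, Foxo3 by 0.12 ± 0.37, Trim63 by 0.21 ± 0.33, Fbxo31 by 0.033 ± 0.11 and Fbxo32 by 0.18 ± 0.25. The count of members called was 0 of 10 in either sex, where 0% of all genes were called, and 0 members were at an unadjusted p under 0.05, against 5.89% of all genes in females and 2.84% in males. The difference between the sexes in the response to the vector, male minus female, was 0.83 ± 0.86 for Foxo1 and 0.58 ± 0.49 for Foxo3. It was called for 0 of 10 members and 0% of all genes, with 3.39% of all genes and 0 members at an unadjusted p under 0.05. DESeq2 called 0 members in these comparisons and 1, 7 and 1 genes in all (both sexes, females, males).

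Genes that work with the members were tested in 5 lists, chosen with earlier results of these data known. Between vectors, 0 of these genes were called. Among 20 genes of the SCF scaffold, ubiquitin supply and proteasome, 10 fold changes were above 0 and 10 below, the median being -0.001 beside -0.004 over all genes. The 4 with the smallest p were the conjugating enzyme Ube2d2a (-0.066 ± 0.038), the activating enzyme Uba1 (0.047 ± 0.03), Zfand5 (0.14 ± 0.092), which stimulates the proteasome, and Nedd8 (-0.061 ± 0.042), which activates cullins. Of 27 measured genes of other muscle ligases and their scaffolds, 14 were above 0, the median being 0.011, led by Ubr4 (0.12 ± 0.056, unadjusted p = 0.0459), Fbxw7 (-0.21 ± 0.12), Huwe1 (0.068 ± 0.037) and the scaffold Cul3 (0.09 ± 0.057). Kbtbd5 and Kbtbd10, genes of muscle Kelch proteins, were listed at 0 in every animal although muscle is known to express both, so the 0 is not read as absence, and Bspry was too low to test.

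Of 24 genes upstream of FoxO, 9 were above 0 and 15 below, the median being -0.042. Irs2, which links the insulin receptor to Akt, was at -0.62 ± 0.33, the glucocorticoid receptor gene Nr3c1 at -0.23 ± 0.12, Rictor, of the complex that completes Akt activation, at -0.15 ± 0.076 and Pdpk1, which phosphorylates Akt, at -0.12 ± 0.073. Of 25 other FoxO-driven genes, 12 were above 0 and 13 below, the median being -0.005. The cell cycle inhibitor Cdkn1a was at -0.54 ± 0.3, Gadd45a, a stress gene of denervated muscle, at -0.35 ± 0.23, and the metallothioneins Mt1 and Mt2 at -0.97 ± 0.65 and -1.12 ± 0.81. Of 15 reported substrates, 8 were above 0 and 7 below, the median being 0.013. These are mRNA levels, which do not show how much of the protein is tagged or lost. The myosin binding protein gene Mybpc2 was at 0.11 ± 0.076, the initiation factor gene Eif3f at -0.078 ± 0.056, Irs1 at -0.48 ± 0.34 and the intermediate filament gene Des at -0.077 ± 0.074. All these genes had adjusted p-values from 0.921 to 0.935 by edgeR's quasi-likelihood test.

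Between the sexes, 2 of the 10 members were called, both lower in males. Trim63 ran from 214 to 367 CPM with a median of 238 in males, against 245 to 863 CPM with a median of 430 in females. The ranges overlapped, since the lowest female, Hand2 replicate 5 at 245 CPM, lay among the males. The log2 fold change of male over female was -0.94 ± 0.22 (SE; 95% interval -1.41 to -0.47; adjusted p = 0.024, edgeR). Fbxo31 ran from 208 to 262 CPM with a median of 243 in males, against 231 to 355 CPM with a median of 304 in females, and its log2 fold change was -0.29 ± 0.074 (95% interval -0.44 to -0.13; adjusted p = 0.0304, edgeR). The 2 of 10 stand beside 5.63% of all genes called, 2.72% lower and 2.91% higher in males, and 5 of 10 members beside 21.6% of all genes at an unadjusted p under 0.05.

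Neither call held in every fit. Without empty-vector replicates 3, 4 and 5, Trim63 was at -0.61 (adjusted p = 0.14) and Fbxo31 at -0.23 (adjusted p = 0.193), so neither passed, and 0 of 10 members were called. Trim63 lost its call when 1 animal was left out, namely empty-vector replicate 7, Hand2 replicate 6 or Hand2 replicate 7 (adjusted p = 0.0504, 0.0506 and 0.0501). Fbxo31 lost its call without any 1 of empty-vector replicates 3, 4, 6 and 7 and Hand2 replicates 1, 3, 6 and 7 (adjusted p from 0.0512 to 0.0685), and with an age term (adjusted p = 0.061). Foxo1 ran from 30.9 to 103 CPM with a median of 41.8 in males, against 36.3 to 284 CPM with a median of 91 in females. Its log2 fold change of -1.34 ± 0.43 did not pass (adjusted p = 0.0872), nor did that of Foxo3, -0.76 ± 0.24 (adjusted p = 0.0776), while DESeq2 called both (adjusted p = 0.0194 and 0.0214) beside Trim63 and Fbxo31. Without empty-vector replicate 1 both passed in edgeR's test too, Foxo1 at 0.0487 and Foxo3 at 0.0327, and without Hand2 replicate 4 or 5 Foxo1 did (adjusted p = 0.039 and 0.0472).

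Fbxo32 differed by -0.32 ± 0.16 and Cblb by -0.17 ± 0.16 between males and females, and Foxo4 by -0.12 ± 0.056 (adjusted p = 0.229, edgeR). Fbxo21 was at 0.16 ± 0.078, Fbxo40 at 0.1 ± 0.07 and Fbxo30 at -0.034 ± 0.085. None of these 6 passed. Markers of slow fibres moved with the sex, and their part in the result was not tested: 5 of 5 were measured, none at 0, and they summed to 62.1 to 197 CPM in males, against 178 to 1005 CPM in females. The 5 adipocyte markers, none at 0, also moved with it, at sums of 9.01 to 30.3 CPM with a median of 18.1 in males, against 22.4 to 67.6 CPM with a median of 33 in females. Red blood cell markers, 4 of 5 measured and none at 0, summed to 286 to 2280 CPM with a median of 460 in males, against 315 to 2420 CPM with a median of 901 in females.

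Of the surrounding genes, other FoxO-driven genes held the most calls between the sexes, 7 of 25 lower and 0 higher in males, with a median log2 fold change of -0.28 beside 0.001 over all genes. Sesn1, which restrains mTORC1, was at -1.04 ± 0.13 (adjusted p = 0.000131), the lysosomal protease gene Ctsl at -0.36 ± 0.075 (0.0082), Cdkn1a at -1.39 ± 0.3 (0.0149) and Gadd45a at -1.002 ± 0.23 (0.0187), all by edgeR. Without empty-vector replicates 3, 4 and 5, 2 of the 25 were called, Sesn1 and Ctsl, with a median of -0.17. Upstream of FoxO, 2 of 24 were called, both lower in males: Mstn, the gene of the growth inhibitor myostatin, at -0.88 ± 0.16 (adjusted p = 0.00494), and Akt2 at -0.18 ± 0.049 (0.0402). Akt1 was at -0.2 ± 0.077 and Pik3r1, a subunit of the kinase that activates Akt, at -0.71 ± 0.26, neither passing. In the SCF and proteasome list only the proteasome subunit gene Psmd11 was called, at -0.2 ± 0.047 (adjusted p = 0.0195); the conjugating enzyme gene Ube2b was at -0.15 ± 0.046, the ubiquitin gene Ubb at -0.13 ± 0.044 and the SCF subunit gene Rbx1 at -0.093 ± 0.034. Among the substrates 3 of 15 were lower in males: the slow troponin gene Tnni1 (-2.77 ± 0.4), the slow myosin light chain gene Myl3 (-2.65 ± 0.42) and Dapk2 (-0.33 ± 0.091; adjusted p = 0.0401). The fast myosin light chain gene Myl1 was at 0.2 ± 0.066 and did not pass. Tnni1 is also in the list of slow fibre markers above. Without empty-vector replicates 3, 4 and 5, Mstn, Tnni1 and Myl3 passed, Akt2, Psmd11 and Dapk2 did not, and the ligase gene Nedd4l was called, higher in males. Of 27 other ligases, 0 were called, with Wwp1 (0.17 ± 0.053), Trim72 (-0.2 ± 0.078) and Nedd4 (0.089 ± 0.037) among the smallest p and 6 at an unadjusted p under 0.05.

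A part of the members varied together from animal to animal. Pearson correlations of log2 CPM, centred on the means of the 4 vector-by-sex groups, were computed for all 45 pairs over 17 animals, with 100000 permutations within those groups and adjustment over the 45 pairs. Foxo1 and Trim63 were the closest pair (r = 0.916, permutation p = 2e-05, adjusted p = 0.0009; Spearman's rho = 0.887, permutation p = 7e-05). Foxo1 also followed Cblb (r = 0.881, adjusted permutation p = 0.00742; rho = 0.892), Foxo3 (r = 0.824, adjusted permutation p = 0.0358; rho = 0.811) and Fbxo31 (r = 0.748, adjusted permutation p = 0.0364; rho = 0.748). Fbxo31 and Cblb (r = 0.825, adjusted permutation p = 0.0075; rho = 0.745), Trim63 and Cblb (r = 0.76, adjusted permutation p = 0.0358; rho = 0.77) and Trim63 and Fbxo31 (r = 0.745, adjusted permutation p = 0.0403; rho = 0.745) made up the 7 pairs that passed. Before adjustment, the permutation p of r in these last 6 pairs ran from 0.00033 to 0.00627 and that of rho from 0.00025 to 0.00411. All 7 lie among Foxo1, Trim63, Cblb, Fbxo31 and Foxo3. By Spearman's rho 11 pairs passed: these 7, Foxo3 with Cblb, and Fbxo21 with Foxo1, Foxo3 and Cblb (adjusted permutation p = 0.017 each).

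The best-known pair of atrophy ligases did not pass this test. Fbxo32 and Trim63 gave r = 0.39 (permutation p = 0.28, adjusted 0.463; rho = 0.397, permutation p = 0.174), and Fbxo32 and Foxo1 r = 0.281 (permutation p = 0.413, adjusted 0.593; rho = 0.37, permutation p = 0.209). Without the 2 animals farthest in Foxo1, empty-vector replicate 4 and Hand2 replicate 3, Fbxo32 and Foxo1 were at r = 0.647 (adjusted permutation p = 0.105). Fbxo32 was nearer to Fbxo31 (r = 0.586, permutation p = 0.0668, adjusted 0.188; rho = 0.571, permutation p = 0.0534) and to Cblb (r = 0.561, permutation p = 0.0362, adjusted 0.116; rho = 0.61, permutation p = 0.0221), at r = 0.719 and 0.667 without the 2 animals farthest in Fbxo32. Foxo4, Fbxo40 and Fbxo30 were in no pair that passed by either measure. When the 2 animals farthest from the median of the first gene of each pair were left out, Foxo1 and Trim63 were at r = 0.887, Foxo1 and Cblb at 0.907 and the other 5 of the 7 pairs between 0.683 and 0.805. Of the 7, 4 then passed, namely Foxo1 with Trim63 and with Cblb, Trim63 with Cblb and Fbxo31 with Cblb. The pairs of Foxo1 with Foxo3 and with Fbxo31 and of Trim63 with Fbxo31 did not (adjusted permutation p = 0.227, 0.105 and 0.129). Without empty-vector replicates 3, 4 and 5, 3 pairs passed: Foxo1 and Trim63 (r = 0.896, adjusted permutation p = 0.0211), Fbxo31 and Cblb (r = 0.86, 0.0211) and Foxo1 and Cblb (r = 0.844, 0.0318). With age added to the centring groups, a choice made after the data were seen, Foxo1 and Trim63 were at r = 0.712. Foxo1 and Cblb were then at r = 0.453 and Fbxo31 and Cblb at r = 0.606. Hand2 females of 23 months and males of 22 months in either vector group were single animals, which this centring sets to 0. Those animals then carried nothing on the pairs. Each r was below that with centring on vector and sex alone (0.916, 0.881 and 0.825). With such groups, this fit cannot decide whether the pairs vary together within an age.

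**Figure D3:**
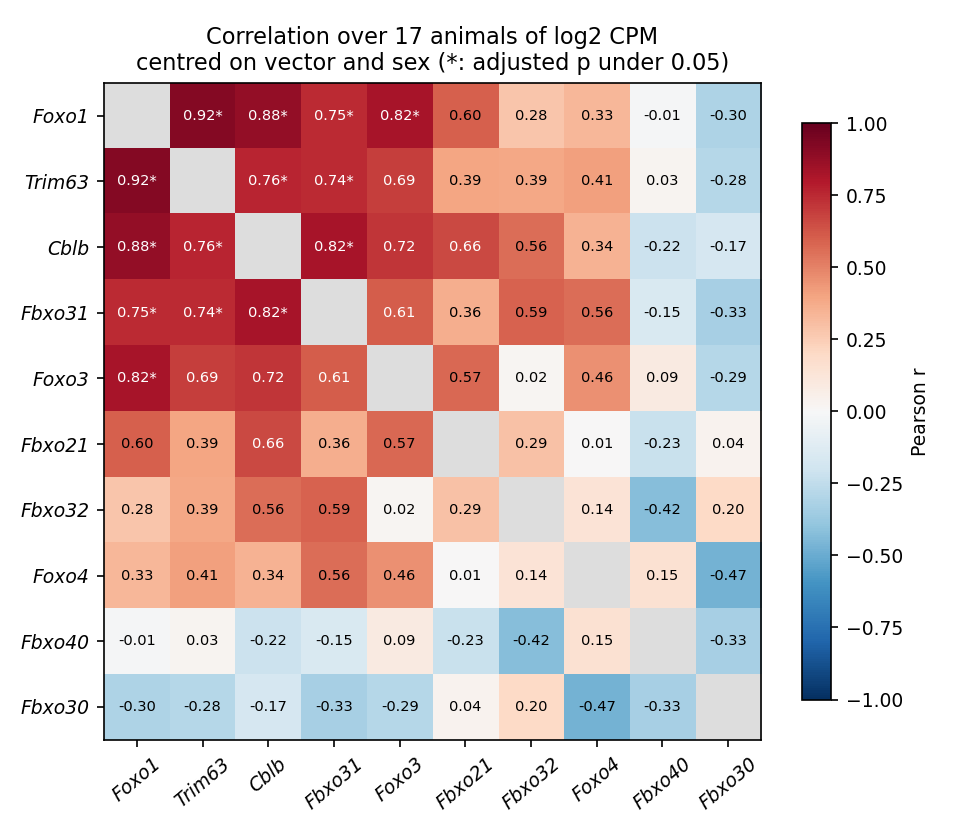
Pearson correlation of log2 CPM, centred on vector and sex, between each pair of the 10 members over 17 animals, with an asterisk where the permutation p adjusted over 45 pairs is under 0.05. The 7 marked pairs lie among Foxo1, Trim63, Cblb, Fbxo31 and Foxo3, and Fbxo40 and Fbxo30 stay near or below 0 against most others.

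**Figure D4:**
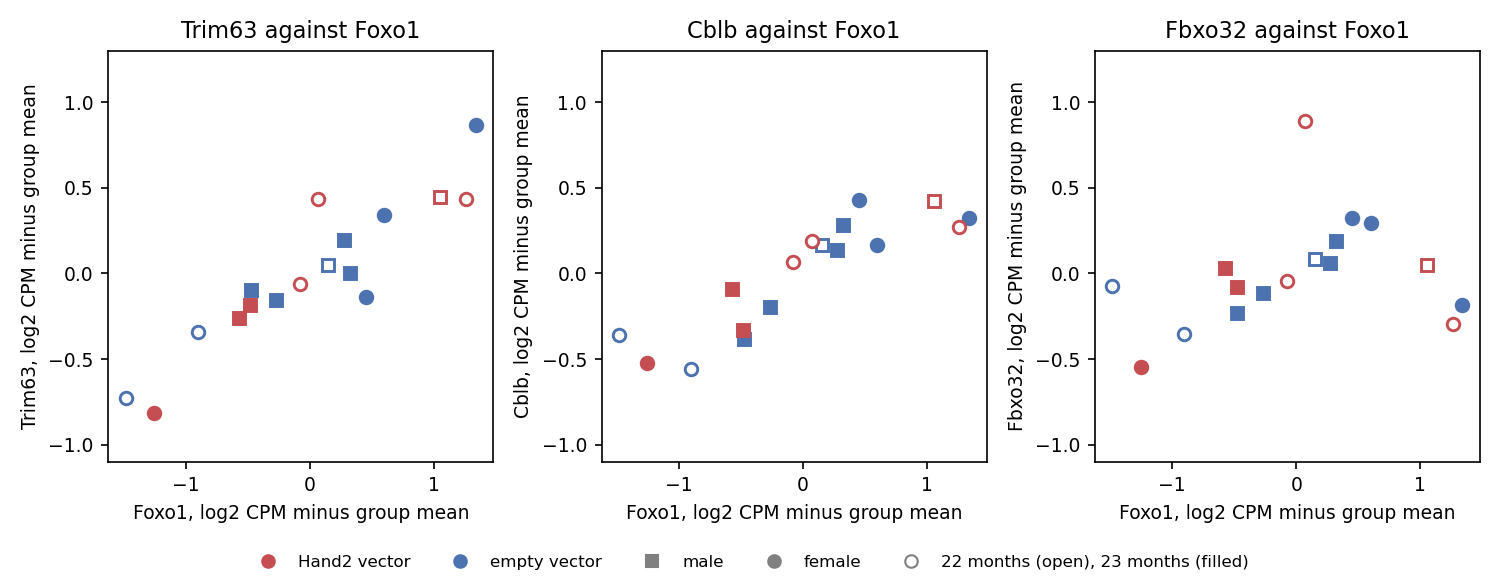
Trim63, Cblb and Fbxo32 against Foxo1, each as log2 CPM minus the mean of the animal's vector-by-sex group, with 1 point per animal (Hand2 red, empty vector blue, squares male, circles female, filled 23 months, open 22 months). Trim63 and Cblb climb with Foxo1, and Fbxo32 has its highest point in a Hand2 female near the middle of the Foxo1 range.

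The high Foxo1 values came from the animals of 22 months in the Hand2 group and from the females of 23 months in the empty-vector group. In Hand2 muscles Foxo1 was at 36.3, 33.4 and 35.6 CPM in the 3 animals of 23 months, against 91, 82.1, 208 and 103 CPM in the 4 of 22 months. In empty-vector females it was at 170, 284 and 154 CPM in the 3 of 23 months, against 40.2 and 60 CPM in the 2 of 22 months. Neither pair of age groups overlapped, and the directions were opposite. The same held for 3 of the 10 members, Foxo1, Trim63 and Cblb, and for 5.3% of all genes. Among females alone it held for 5 of 10 members and for 13.5% of all genes. The empty-vector males lay between 30.9 and 53.8 CPM at 23 months, against 47.8 CPM in the only one of 22 months.

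Trim63 followed the same order. In Hand2 muscles it was at 245, 225 and 237 CPM at 23 months, against 582, 413, 581 and 367 CPM at 22 months. In empty-vector females it was at 599, 863 and 430 CPM at 23 months, against 286 and 373 CPM at 22 months. Again the ages did not overlap in either set. Cblb was at 20.8, 23.2 and 19.6 CPM in Hand2 muscles of 23 months, against 34.2, 31.3, 36.2 and 33.1 CPM at 22 months. In empty-vector females Cblb was at 30.2, 33.7 and 36.3 CPM at 23 months, against 20.9 and 18.3 CPM at 22 months. Within these sets Cblb thus separated the same animals with less spread. Empty-vector males did not keep to this order, with Cblb at 19.7, 22.3, 28.1 and 31.1 CPM at 23 months, against 28.7 CPM at 22 months. The male at 31.1 CPM, with Foxo1 at 53.8 CPM, lay above the older female at 30.2 CPM. Trim63 in empty-vector males ran from 214 to 273 CPM. Fbxo31 was at 258, 256 and 222 CPM in Hand2 muscles of 23 months, against 347, 306, 355 and 253 CPM at 22 months, where the male at 253 CPM overlapped the older animals. In empty-vector females Fbxo31 was at 318, 304 and 274 CPM at 23 months, against 262 and 231 CPM at 22 months, with no overlap.

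Fbxo32 did not separate the ages. It was at 453, 601 and 557 CPM in Hand2 muscles of 23 months, against 1224, 641, 538 and 610 CPM at 22 months. In empty-vector females it was at 798, 573 and 814 CPM at 23 months, against 618 and 510 CPM at 22 months, and both sets overlapped. The animal with the highest Trim63 and Foxo1, empty-vector replicate 4, had 573 CPM of Fbxo32, the median of all 17 animals. Foxo4 ran only from 248 to 334 CPM over all animals, Fbxo40 from 109 to 163 CPM, Fbxo30 from 17.8 to 29.4 CPM and Fbxo21 from 20.2 to 31.2 CPM.

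**Figure D5:**
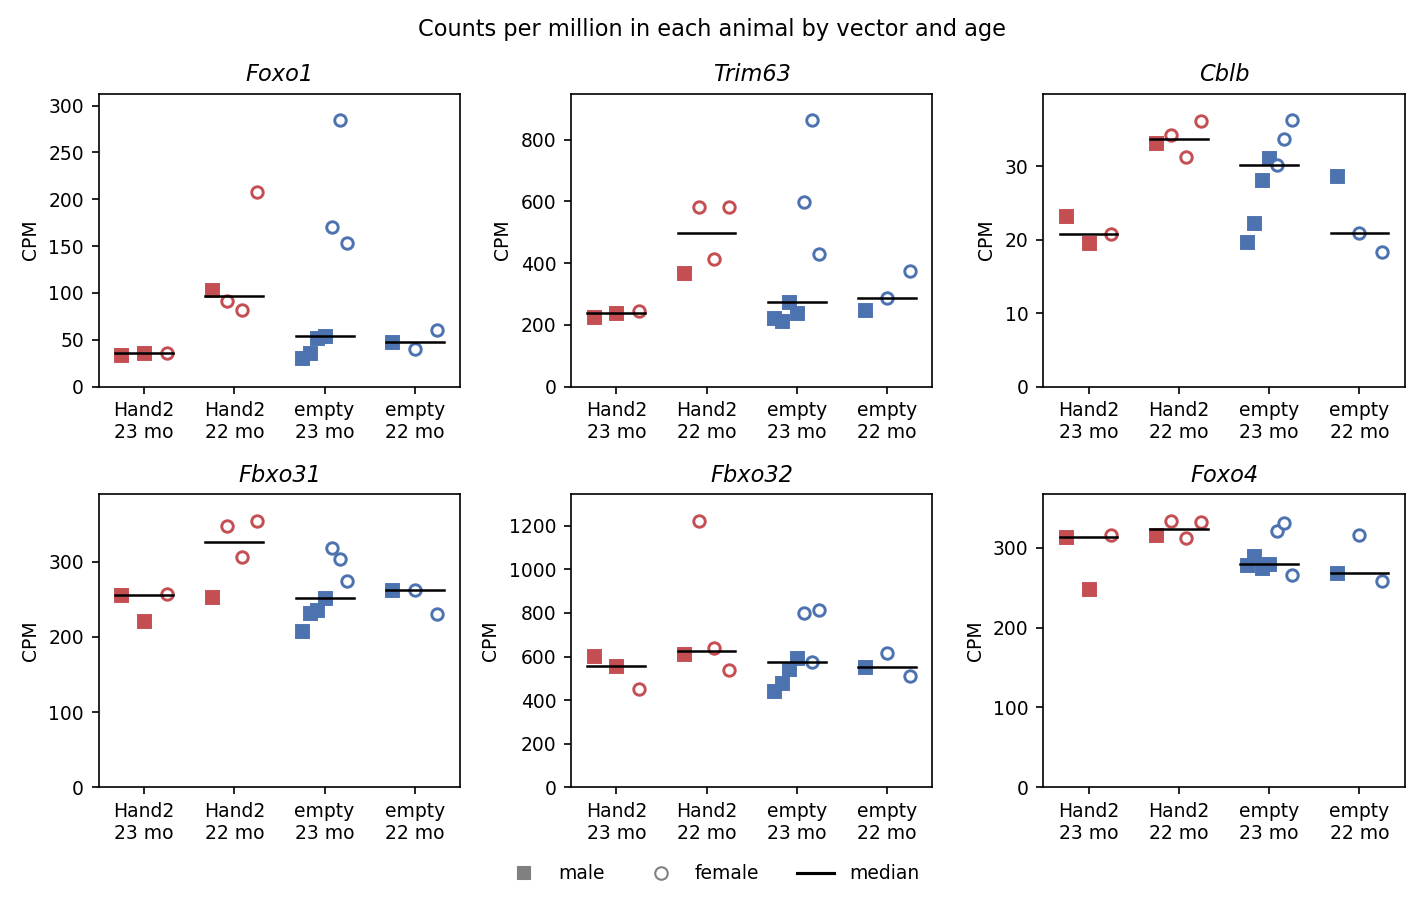
CPM of 6 members in each animal by vector and age (Hand2 in red left of empty vector in blue, 23 months left of 22 months, squares male, open circles female, bars at the median; axes start at 0). Foxo1, Trim63 and Cblb do not overlap between the ages in Hand2 animals or in empty-vector females, with the higher values at 22 months in Hand2 animals and at 23 months in empty-vector females, while Fbxo32 and Foxo4 overlap between all 4 age and vector groups.

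The opposite directions were tested with a vector-by-age term in a model that also held sex, a test chosen after the pattern was seen. The log2 fold change of 23 over 22 months in Hand2 muscles minus that in empty-vector muscles was -2.37 ± 0.8 for Foxo1, -1.13 ± 0.41 for Trim63, -0.98 ± 0.26 for Cblb and -0.34 ± 0.14 for Fbxo31 on the log2 scale. For Foxo3 it was -0.89 ± 0.48, and -0.43 without empty-vector replicates 3, 4 and 5. Foxo3 was at 5.2, 5.05 and 2.78 CPM in Hand2 muscles of 23 months, against 4.41, 5.24, 8.37 and 5.15 CPM at 22 months, so the ages overlapped there (log2 fold change -0.12 ± 0.36). In empty-vector females Foxo3 was at 8.41, 14.7 and 8.78 CPM at 23 months, against 3.62 and 4.33 CPM at 22 months, with no overlap. By edgeR's quasi-likelihood test 0 of 10 members passed over all genes (Cblb adjusted p = 0.0868, Foxo1 0.172, Trim63 0.201), where 0.38% of all genes were called. At an unadjusted p under 0.05 stood 5 of 10 members, Foxo1, Trim63, Cblb, Fbxo31 and Fbxo21 (-0.34 ± 0.15), beside 16.4% of all genes. Without empty-vector replicate 6 or 10 Cblb passed (adjusted p = 0.0394 and 0.0266). Fbxo32 was at -0.51 ± 0.36, Foxo4 at -0.18 ± 0.12, Fbxo30 at 0.18 ± 0.18 and Fbxo40 at 0.004 ± 0.15. Within Hand2 muscles, 0 members and 0% of all genes were called between the ages, and 3 of 10 members and 12.9% of all genes were at an unadjusted p under 0.05. Within empty-vector muscles the values were 0 members, 0% of genes, 2 of 10 members and 14.4% of genes.

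Other values moved with these animals, and their part in the result was not tested. The 5 endothelial markers, none at 0, summed to 346 to 435 CPM in Hand2 muscles of 23 months, against 285 to 335 CPM at 22 months, and to 290 to 328 CPM in empty-vector females of 23 months, against 381 to 445 CPM at 22 months. Endothelial sums were thus low where Foxo1 was high in these sets. Kdr, Cdh5, Tek and Emcn each separated the ages there, while Pecam1 overlapped in both. The 6 muscle fibre markers summed to 76310 to 81430 CPM in Hand2 muscles of 23 months, against 63190 to 74110 CPM at 22 months, without overlap, and to 67870 to 76810 CPM in empty-vector females of 23 months, against 70190 to 71350 CPM at 22 months. Slow fibre markers summed to 62.1 to 960 CPM in Hand2 muscles of 23 months, against 92.7 to 937 CPM at 22 months, and to 408 to 662 CPM in empty-vector females of 23 months, against 925 to 1005 CPM at 22 months. The 4 Schwann cell markers, none at 0, summed to 133 to 174 CPM in Hand2 muscles of 23 months, against 120 to 158 CPM at 22 months, and to 180 to 195 CPM in empty-vector females of 23 months, against 115 to 163 CPM at 22 months. Slow fibre and Schwann sums thus separated the ages in empty-vector females and not in Hand2 muscles. Red blood cell markers summed to 405 to 2280 CPM in Hand2 muscles of 23 months, against 315 to 1317 CPM at 22 months, and to 1527 to 2420 CPM in empty-vector females of 23 months, against 576 to 804 CPM at 22 months. Handling-stress genes summed to 1525 and 1014 CPM in empty-vector replicates 3 and 4, whose Foxo1 was at 170 and 284 CPM. They summed to 242 CPM in Hand2 replicate 3, whose Foxo1 of 208 CPM was the second highest of all. Their median correlation, centred on vector and sex, was 0.247 with Foxo1 and 0.425 with Trim63. Without empty-vector replicates 3, 4 and 5 these medians were -0.061 and -0.031.

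Over all genes, those nearest to Trim63 by the same centred correlation, as a description over 17 animals, were Odf3l2 (r = 0.964), Klf15 (0.964), Tacc1 (0.96), Tcp11l2 (0.949) and 1810026B05Rik (0.94), and Foxo1 came 7th of 13958 genes. Klf15 is a transcription factor that glucocorticoids induce in muscle. Without empty-vector replicates 3, 4 and 5 these values lay between 0.883 and 0.946. Those nearest to Fbxo32 were Mfng, a modifier of Notch receptors (r = 0.843), Tyms, an enzyme of thymidylate synthesis (0.828), Sfr1 (0.819), Gm19757 (0.809) and Cpne8 (0.799), and none of the 5 was among those nearest to Trim63. Without Hand2 replicate 1, the animal with the highest Fbxo32, the same 5 were at 0.716, 0.654, 0.795, 0.621 and 0.693, and Trim63 came 1156th in likeness to Fbxo32 over all animals.

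Of the lists, the one named other FoxO-driven genes lay nearest to the shared pattern as a set. It also holds genes known for induction by glucocorticoids, such as Klf15 and Tsc22d3, so its name is no result of these data. The median correlation of its genes was 0.51 with Foxo1 and 0.582 with Trim63, beside 0.002 and -0.003 over all genes, and 0.307 with Fbxo32. Above 0.7 with Foxo1 were 7 of 25, or 28%, beside 4.53% of all genes: Ddit4 (0.955), an inhibitor of mTORC1, Klf15 (0.924), Tsc22d3 (0.907), a glucocorticoid-induced leucine zipper gene, Mt1 (0.868), Mt2 (0.863), Fkbp5 (0.784), a co-chaperone of the glucocorticoid receptor, and Pdk4 (0.776), which limits glucose oxidation. Others of the list lay near 0 with Foxo1, among them Cdkn1b (0.042), Ccng2 (-0.031), Bnip3 (-0.07) and Bnip3l (-0.093). Whether FoxO factors or glucocorticoids drove the shared pattern was not tested. The list was chosen with earlier results of these data known, so its shares are a description. All 25 lie in 1 tissue and share depth and animals, so these values are not independent of each other. Upstream of FoxO, Sgk1, a kinase that phosphorylates FoxO factors, was at 0.935 with Foxo1 and Pik3r1 at 0.874, while Nfkb1 was at -0.867 and Irs1, the substrate of Fbxo40 and Cblb, at -0.732. The list as a whole had a median of 0.313. SCF and proteasome genes had a median of 0.232 with Foxo1, other ligases 0.184 and substrates -0.205; without empty-vector replicates 3, 4 and 5 these were 0.247, -0.061 and -0.347, so the median of the other ligases turned in sign. Zfand5 (0.786) and Ubr2 (0.705) were the only genes of the first and second of these above 0.7, and Kbtbd13, a muscle Kelch gene, was at -0.871.

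In the vector-by-age term, 24 of 25 other FoxO-driven genes had the same negative sign as Foxo1. Their median was -0.3, beside -0.001 over all genes. Only Tsc22d3 of this list passed (-1.56 ± 0.26, adjusted p = 0.0375, edgeR). It passed in 10 of the 17 fits that each left out 1 animal. Without empty-vector replicates 3, 4 and 5 it passed at an adjusted p of 0.0451 (edgeR). Upstream of FoxO 18 of 24 were negative and Sirt1, a deacetylase of FoxO factors, passed (-0.85 ± 0.17, adjusted p = 0.0403, edgeR), in 8 of those 17 fits and not without those 3 animals (adjusted p = 0.104). Substrates ran the other way, 13 of 15 positive with a median of 0.3 and 0 called. As mRNA levels, these values do not measure tagging or loss of the proteins. Acta1 and Myh4 of this list are also muscle fibre markers, whose sums were higher at 23 than at 22 months in Hand2 muscles. SCF and proteasome genes (13 of 20 negative) and other ligases (17 of 27 negative) had 0 called. Apart from the 5 genes nearest to Trim63 and to Fbxo32, the genes named with a correlation or in this term were chosen after their values were seen.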

How the data were processed

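Libraries of total RNA from the EDL of 17 mice were made with TruSeq v2, per the labels. The authors deposited estimated counts per gene locus, not scaled for depth, and normalized log2 values, whose scaling was not given in the sources used here. Per the submitters' processing notes, the build was mm10. The aligner, the counter and the use of strand were not given in the sources used here. Samples were grouped by the labelled vector and sex. Numbers of replicates are accession order and no pairing.

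Estimated counts were rounded, filtered with filterByExpr on the 4 groups of vector and sex, scaled by TMM and tested with robust quasi-likelihood F tests (edgeR 4.0.16, R 4.3.3), with vector and sex as terms or 4 groups, and Benjamini-Hochberg adjustment at 5% over 13958 genes. SEs come from the log2 fold change and its F statistic; intervals are 95%. The prior count of log2 CPM in correlations was 2. Lengths are unions of exons (GENCODE vM21 annotation, the same build as mm10). Libraries were checked in pairs, and the closest pair differed by a mean chi-square of 8 per gene, so none was a repeat. The procedure was tested on simulated data. Alternatives were DESeq2 1.42.0, limma 3.58.1 (voom with quality weights, and the authors' normalized log2 values), other filters and scalings, an age term, no sex term, single ages and left-out animals. The limma fit on normalized values, the age-centred correlations, the vector-by-age term and list counts without empty-vector replicates 3, 4 and 5 were added after the data were seen.

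The members and the lists were chosen with earlier results of these data known. Named are all members, the 5 genes most like Fbxo32 and Trim63, the 4 genes of each list with the smallest p between vectors and between sexes, and others where the text says that their values were seen first; 1 gene that this rule names is not reported here. Symbols absent from the table were matched by gene ID. Ubiquitin and metallothionein genes have near-identical copies, whose reads the counting could split, so their values are uncertain.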

Additional observations from a re-analysis of the deposited data

Results flagged for a closer look

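Values of 4 members stood far from the rest of their vector group by Dixon's criterion, which chance meets in about 1 in 20 groups, with 20 groups examined. Fbxo32 was at 1224 CPM in Hand2 replicate 1, the highest of 7, where the next Hand2 animal had 641 CPM. Foxo1 was at 207.7 CPM in Hand2 replicate 3, the highest of 7, beside 580.6 CPM of Trim63 in the same animal. Foxo3 was at 14.71 CPM in empty-vector replicate 4, the highest of 10, an animal that also had the highest Foxo1 and Trim63. Foxo4 was at 247.8 CPM in Hand2 replicate 7, the lowest of 7.

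In females, 5 members differed between 23 and 22 months in opposite directions in the vector groups, with no overlap in either, a pattern that 13.5% of all genes showed. The Hand2 value rests on 1 animal of 23 months against 3 of 22, and the empty-vector value on 3 against 2. On the log2 CPM scale, Foxo1 differed by -1.673 in Hand2 females and by 1.99 in empty-vector females, and Trim63 by -1.084 in Hand2 females and 0.891 in empty-vector females. Cblb differed by -0.7 in Hand2 and 0.765 in empty-vector females, Fbxo31 by -0.381 in Hand2 and 0.278 in empty-vector females, and Fbxo21 by -0.083 in Hand2 and 0.334 in empty-vector females. Over both sexes the test of this difference passed for 0 of the 5 (edgeR, adjusted p from 0.0868 to 0.266).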

How the results depend on the processing

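No paired analysis was possible because replicate numbers follow accession order and the labels pair no animals across groups. Of the alternatives other than leaving out 1 animal, 459 of 505 values of single members or pairs and 107 of 121 counts stayed on the same side with the same direction or within 1.5 times, and the cause of the exceptions was not tested. With 7 and 10 animals and estimated counts, Foxo1, with intervals of nearly 1 on either side, is the member least well determined.

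DESeq2 called 1 gene between vectors, 7 in females, 1 in males and 1272 between sexes, with 4 members (edgeR: 0, 0, 0, 786 and 2). Members called between sexes numbered 1 with an age term, 1 with limma on the authors' normalized values and 0 without empty-vector replicates 3, 4 and 5, when 291 genes were called. Without these 3, log2 fold changes turned to 0.663 (Foxo1) and 0.3 (Foxo3) between vectors, to 0.461 (Trim63), 1.056 (Foxo1) and 0.548 (Foxo3) in females, to -0.16 (Fbxo32), -0.252 (Trim63), -0.669 (Foxo1) and -0.425 (Foxo3) in the vector-by-sex difference and to 0.021 (Cblb) between sexes; none was called. At 22 months alone Foxo1 was at 1.269 and Foxo3 at 0.511 between vectors; at 23 months alone Fbxo32 was at -0.11, Trim63 at -0.454, Fbxo31 at -0.048, Fbxo21 at -0.02 and Cblb at -0.394. With voom Fbxo30 was at 0.002 between sexes.

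Correlated pairs passing numbered 13 without centring and 3 without empty-vector replicates 3, 4 and 5. Centred on vector, sex and age, where some groups were single animals, r was -0.439 (Foxo1 and Fbxo32), -0.545 (Foxo3 and Fbxo32) and -0.16 (Fbxo32 and Trim63). Foxo3 and Fbxo32 were at -0.241 without those 3 animals, and Foxo4 and Fbxo32 at -0.099 without the 2 farthest. In the vector-by-age term 53 genes were called, 7 without those 3 animals and 152 with library size alone, when Fbxo40 was at -0.031 and -0.033.

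Leaving out 1 animal at a time, genes called ran from 0 to 1 between vectors, 0 to 1 in females, 0 to 2 in males, 476 to 954 between sexes and 0 to 156 for the vector-by-age term. Members called ran from 0 to 4 between sexes (0 without empty-vector replicate 7 or Hand2 replicate 6 or 7) and 0 to 1 for the vector-by-age term. Between vectors Fbxo32 ran from -0.049 to 0.226, Trim63 from -0.12 to 0.158, Cblb from -0.019 to 0.13 and Foxo1 from -0.407 to 0.175. In females Fbxo32 ran from -0.285 to 0.274 and Trim63 from -0.316 to 0.109. In males Trim63 ran from -0.05 to 0.337, Fbxo31 from -0.011 to 0.096, Foxo1 from -0.353 to 0.661 and Foxo3 from -0.023 to 0.354. In the vector-by-sex difference Fbxo32 ran from -0.096 to 0.463, between sexes Fbxo30 from -0.065 to 0.02, and in the vector-by-age term Fbxo40 from -0.146 to 0.137.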
